A study of Homo sapiens with 82 samples.

Results

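The genes described are 7 genes of cholesterol synthesis and its control in HT29 cells, a human colorectal adenocarcinoma line. They were chosen by name from the gene count tables, in which each had 1 row, and make up 7 of 51838 rows. The members are SREBF2 and INSIG1, which control the pathway, and HMGCS1, IDI1, FDFT1, SQLE and LSS, which encode enzymes. RNA was sequenced from cells that had received GW3965, T0901317 or rosiglitazone, each at 10 μM, or the carrier DMSO, for 24 or 48 h. This made 8 groups of 4 libraries, including a DMSO group at each time. GW3965 and T0901317 are synthetic agonists of the liver X receptors (LXRs), and rosiglitazone is an agonist of PPARG. According to the methods, all cells were moved before treatment to medium free of phenol red with serum treated by charcoal and dextran. The comparisons ask how each agonist changed these genes against DMSO and whether the change differed between the time points. They also ask whether GW3965 differed from T0901317 and from rosiglitazone.

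Cells make cholesterol from acetyl-CoA through mevalonate, farnesyl pyrophosphate, squalene and lanosterol. SREBF2 encodes SREBP2, the transcription factor that turns on nearly every enzyme of the route. SREBP2 is held in the endoplasmic reticulum with its escort SCAP. When sterols are plentiful, INSIG proteins retain the pair there, and when sterols run low it moves to the Golgi and is cut to release the active factor. INSIG1 is itself a target of SREBP2. LXRs are activated by oxysterols, the oxidised forms of cholesterol, and are best known for genes that export cholesterol and for SREBF1, the factor of fatty acid synthesis.

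Promoter windows of 4 members are shown first, since SREBP2 acts at sterol regulatory elements that usually lie beside a CCAAT box. RefSeq sequences on GRCh38.p14 were found for 5 of the 7 members, as 8 windows of 250 bases before a transcript start. The letters TCACNCCAC (sterol regulatory element) and CCAAT were searched on both strands, and matches are in capitals, so that ATTGG is CCAAT on the other strand. A window of SREBF2 (chr22:41832855-41833104, plus strand), of INSIG1 (chr7:155297628-155297877, plus strand), of HMGCS1 (chr5:43313413-43313662, minus strand) and of LSS (chr21:46228775-46229024, minus strand) read as follows.
SREBF2: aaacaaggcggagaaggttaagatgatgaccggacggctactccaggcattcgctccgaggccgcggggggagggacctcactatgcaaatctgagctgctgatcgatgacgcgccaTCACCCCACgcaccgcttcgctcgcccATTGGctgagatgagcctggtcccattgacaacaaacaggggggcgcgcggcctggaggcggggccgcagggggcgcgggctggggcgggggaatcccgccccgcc
INSIG1: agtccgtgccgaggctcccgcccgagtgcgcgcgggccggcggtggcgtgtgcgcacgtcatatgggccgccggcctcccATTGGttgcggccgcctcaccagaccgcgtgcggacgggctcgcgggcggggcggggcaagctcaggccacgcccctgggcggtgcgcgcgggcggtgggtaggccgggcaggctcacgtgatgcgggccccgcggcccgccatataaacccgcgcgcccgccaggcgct
HMGCS1: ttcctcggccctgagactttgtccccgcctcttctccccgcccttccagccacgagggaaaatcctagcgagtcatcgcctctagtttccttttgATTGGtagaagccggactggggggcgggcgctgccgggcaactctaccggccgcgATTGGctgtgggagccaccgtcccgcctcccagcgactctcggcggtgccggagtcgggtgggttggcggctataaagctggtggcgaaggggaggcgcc
LSS: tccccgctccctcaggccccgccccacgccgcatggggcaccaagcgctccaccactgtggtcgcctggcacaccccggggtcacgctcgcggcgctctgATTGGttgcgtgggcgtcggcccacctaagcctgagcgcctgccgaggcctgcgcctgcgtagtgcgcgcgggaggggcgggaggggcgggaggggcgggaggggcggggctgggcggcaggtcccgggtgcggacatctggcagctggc
The sterol regulatory element letters were matched in the SREBF2 window, 133 bases before the start, and in no other window of the members. Those letters occurred in 0.883% of all 35116 windows. CCAAT was matched in 6 of the 8 member windows, against 32% of all windows, and it lay 106 bases before the SREBF2 start. HMGCS1 and IDI1 each had more than 1 window, some of them overlapping, so the windows are not separate genes. The windows without a match were another of HMGCS1 (chr5:43313182-43313431) and an IDI1 window (chr10:1056705-1056954), neither of them shown. The letters GGGCGG (GC box) were in all 8 member windows and in 42.6% of all windows. A match describes these letters only, and no match says nothing about binding of SREBP2.

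All 7 members passed the filter on low counts. Levels are given as CPM, the share of a library's counts on a scale of 1000000, scaled by the TMM method over all 32 libraries. They are compared between groups of 1 gene and not between genes, since the counts are not divided by gene length. A gene was taken as changed at an adjusted p under 0.01 in edgeR's quasi-likelihood test with Benjamini-Hochberg adjustment over all genes tested. Because RNA came from whole cultures, fewer cells with a transcript and less of it per cell cannot be told apart. Total counts ran from 21044798 to 51332656. The 8 epithelial markers summed to between 13849 and 21343 CPM, and the markers of other cell types to between 2.43 and 8.57 CPM over 4 rows. At 48 h against DMSO, 4 of the 8 epithelial markers were higher and 0 lower with GW3965, 3 were higher and 2 lower with T0901317, and 2 were higher and 3 lower with rosiglitazone, at log2 fold changes from -1.03 to 1.75. Between the times in DMSO 2 were higher and 3 lower. COL1A1, a collagen of fibroblasts and the only marker of other cell types that passed the filter on low counts, rose by 0.53 with GW3965 at 48 h (adjusted p = 8.68e-04). The part of these markers in the members' values was not tested. The LXR target ABCA1, which exports cholesterol, rose by 4.61 (log2) with GW3965 and by 3.71 with T0901317 at 24 h, and the PPARG target ANGPTL4 rose by 5.02 with rosiglitazone. These control genes did not respond to 1 class of agonist alone. ANGPTL4 was at 1.22 with GW3965 at 24 h (adjusted p = 0.0283) and rose by 3.81 at 48 h, and PDK4, the other PPARG control gene, rose by 1.47 and 2.29 with GW3965 and by 1.55 with T0901317 at 48 h. With rosiglitazone the LXR control genes ABCG1 and SCD rose by 0.50 and 0.24 at 24 h and by 1.22 and 0.40 at 48 h. ABCA1 fell by 0.95 with rosiglitazone at 24 h, but at 48 h it stood at 0.46 and was not lower.

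In cells given DMSO, 5 of the 7 members were lower at 48 h than at 24 h and 0 were higher, while 18.9% of all genes tested were lower and 19.7% were higher. INSIG1 fell by 1.61 on the log2 scale (standard error 0.09, adjusted p = 7.66e-16). HMGCS1, the enzyme that makes HMG-CoA, fell by 1.56 (standard error 0.12, adjusted p = 9.25e-13). IDI1, which isomerises isopentenyl pyrophosphate, fell by 1.16, SQLE, which oxidises squalene, by 1.04, and LSS, which closes squalene epoxide into lanosterol, by 1.05. SREBF2 differed by 0.04 (95% interval -0.10 to 0.19) and FDFT1, the squalene synthase, by -0.10 (95% interval -0.23 to 0.02), and neither passed the test. The 2 time points also differ in everything else that was done once per time point, and time and those steps cannot be told apart.

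INSIG1 shows the pattern per library. In DMSO at 24 h it measured 158, 143, 149.8 and 148 CPM, and at 48 h 46.0, 54.8, 45.7 and 51.0 CPM. The 2 groups did not overlap, and the 48 h mean was 33.0% of the 24 h mean. With GW3965 it measured 226, 229, 224 and 217 CPM at 24 h and 157, 178, 148 and 165 CPM at 48 h. With T0901317 it measured 196, 203, 189 and 179 CPM at 24 h and 168, 168, 136 and 158 CPM at 48 h. All 8 LXR agonist libraries at 48 h were thus above all 4 DMSO libraries of that time, and their group means were 108% and 105% of the DMSO mean at 24 h. With rosiglitazone it measured 125, 129, 128 and 122 CPM at 24 h and 48.0, 42.2, 29.6 and 41.3 CPM at 48 h, which overlapped DMSO at 48 h.

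HMGCS1 followed the same order of groups at 48 h except that T0901317 stood above GW3965. In DMSO it measured 176, 179, 200.0 and 190.2 CPM at 24 h and 60.0, 68.1, 59.8 and 66.3 CPM at 48 h. With GW3965 it measured 231, 203, 182 and 188 CPM at 24 h and 164, 178, 124 and 169 CPM at 48 h. With T0901317 it measured 195, 186, 160.3 and 192 CPM at 24 h and 218, 225, 169 and 191 CPM at 48 h. No LXR agonist group separated from DMSO at 24 h, and both did so at 48 h. With rosiglitazone it measured 151, 155, 149 and 137 CPM at 24 h and 65.5, 47.9, 38.1 and 47.2 CPM at 48 h, so that it was below every DMSO library at 24 h and overlapped DMSO at 48 h.

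LSS means with both LXR agonists lay above the DMSO mean at 24 h as well as at 48 h, as did those of INSIG1, SREBF2 and FDFT1. In DMSO it measured 231, 232, 200.3 and 234 CPM at 24 h and 114, 119.7, 93.2 and 111 CPM at 48 h. With GW3965 it measured 292, 369, 414 and 424 CPM at 24 h and 373, 408, 347 and 389 CPM at 48 h. With T0901317 it measured 306, 297, 334 and 269 CPM at 24 h and 338, 271, 229 and 271 CPM at 48 h. The GW3965 group at 48 h stood at 169% of the DMSO mean at 24 h and was above every T0901317 library of that time. With rosiglitazone it measured 204, 199.5, 216 and 195 CPM at 24 h and 120.1, 115, 93.4 and 98.4 CPM at 48 h, overlapping DMSO both times.

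SREBF2 varied least. Its group means lay between 350.2 ± 19.5 CPM (SD, n = 4) in DMSO at 24 h and 451 ± 12.1 CPM with GW3965 at 48 h. In DMSO at 48 h it measured 371, 374, 348 and 365 CPM, and with GW3965 at 48 h 444, 439, 465 and 458 CPM. Ordered by mean, every pair of neighbouring groups of SREBF2 overlapped. FDFT1 had its lowest means in both DMSO groups, at 122 ± 5.29 CPM at 24 h and 114 ± 3.25 CPM at 48 h, which overlapped each other. Every treated library of FDFT1 was above all DMSO libraries of its time point, with means from 145 ± 3.84 CPM (T0901317, 24 h) to 172 ± 13.3 CPM (T0901317, 48 h).

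IDI1 and SQLE shared an order in which all 4 groups at 24 h came first, followed by T0901317, GW3965, DMSO and rosiglitazone at 48 h. IDI1 means ran from 117 ± 12.3 CPM with GW3965 at 24 h to 36.7 ± 7.79 CPM with rosiglitazone at 48 h (SD, n = 4). SQLE means ran from 433 ± 13.4 CPM with rosiglitazone at 24 h to 169 ± 38.5 CPM with rosiglitazone at 48 h. In both genes, the gap between neighbours without overlap lay between GW3965 at 48 h and DMSO at 48 h. HMGCS1 and LSS also had 1 such gap, in each case between rosiglitazone at 24 h and DMSO at 48 h.

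**Figure D1:**
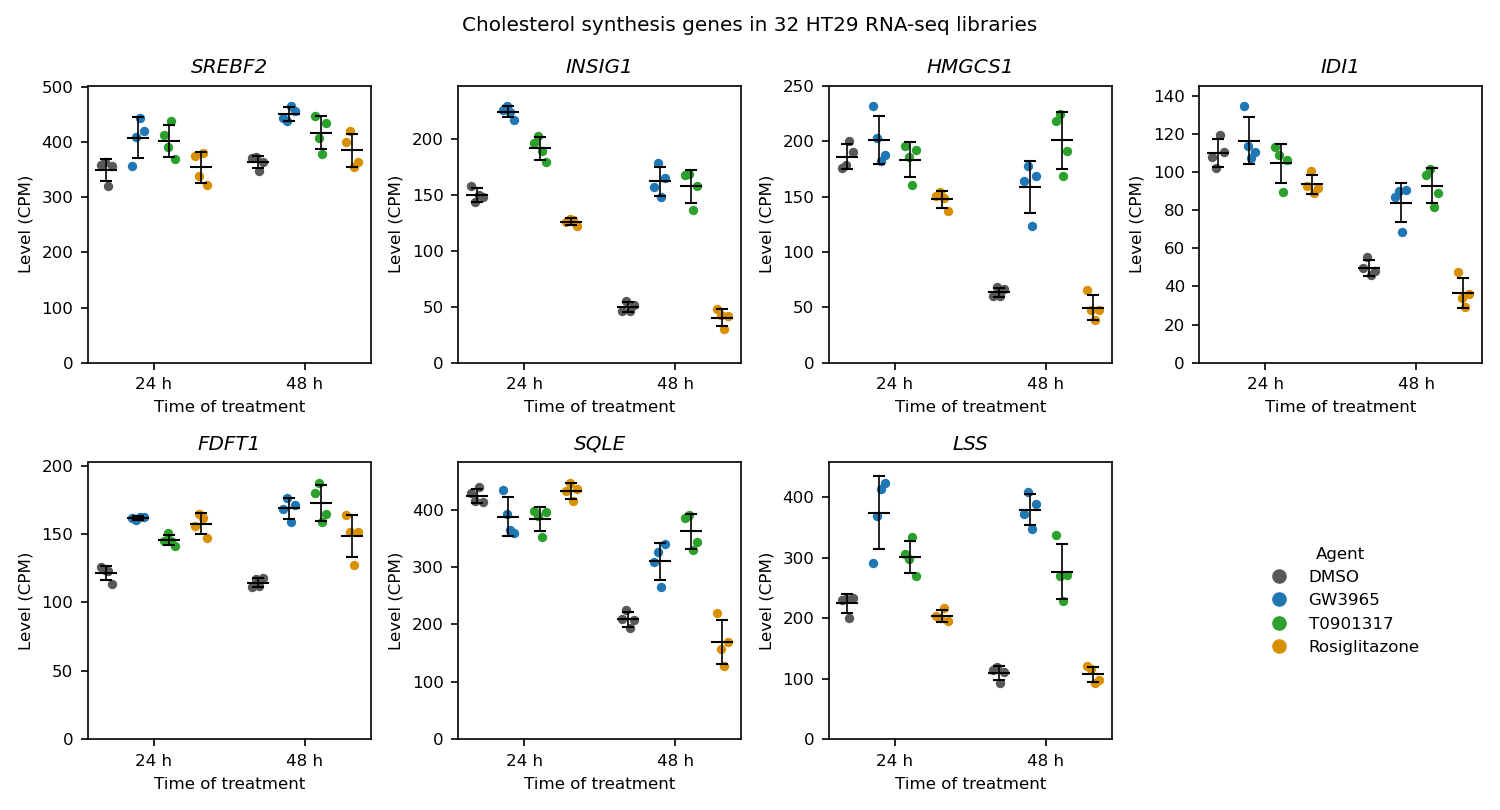
Level of each member in every library (points, CPM on a linear axis from 0) by agent and time, with the mean and SD of 4 libraries as bars. For INSIG1, HMGCS1, IDI1, SQLE and LSS, DMSO and rosiglitazone libraries at 48 h lie below all others, and SREBF2 and FDFT1 lack that drop.

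With GW3965 at 24 h, 3 of 7 members were higher than with DMSO and 0 were lower, against 1.86% and 0.868% of all genes tested. LSS rose by 0.73 (standard error 0.10, adjusted p = 4.27e-05), INSIG1 by 0.57 (standard error 0.05, adjusted p = 3.56e-07) and FDFT1 by 0.40 (standard error 0.05, adjusted p = 2.09e-05) on the log2 scale. SREBF2 was at 0.21 (95% interval 0.06 to 0.37, adjusted p = 0.134), HMGCS1 at 0.10, IDI1 at 0.07 and SQLE at -0.14, and these 4 did not pass the test. At 48 h, all 7 members were higher and 0 were lower, against 16.1% and 17.5% of all genes. LSS rose by 1.79 (standard error 0.11, adjusted p = 2.01e-10), INSIG1 by 1.71 and HMGCS1 by 1.31. The median of the 7 was 0.75. The smaller rises were 0.75 in IDI1, 0.57 in SQLE, 0.56 in FDFT1 and 0.30 in SREBF2. With a fold of at least 2 also required, 3 members were called, LSS, INSIG1 and HMGCS1. The share of all genes at that fold limit was not taken, and the 16.1% above is for the adjusted p alone.

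With T0901317 at 24 h, INSIG1 rose by 0.36 (standard error 0.05, adjusted p = 2.42e-04) and FDFT1 by 0.26 (standard error 0.05, adjusted p = 0.00400), which made 2 of 7 members higher and 0 lower, against 1.33% and 0.119% of all genes. LSS was at 0.43 (95% interval 0.23 to 0.63) and all 4 libraries were above DMSO, but it missed the threshold (adjusted p = 0.0145 by edgeR). LSS passed in DESeq2 (adjusted p = 0.00158), with library size scaling (0.00631), with no filter on low counts (0.00341), with the 2 groups alone (0.00240) and without T0901317 replicate 4 or GW3965 replicate 1. Neither call held when all 32 libraries were fitted together, where edgeR gave an adjusted p of 0.0203 for INSIG1 and 0.0120 for FDFT1. FDFT1 also missed the threshold with library size scaling (adjusted p = 0.0447), with no filter (0.0108) and with the 2 groups alone (0.0127), where INSIG1 and LSS were the 2 calls. It missed it too without DMSO replicate 2, 3 or 4 or T0901317 replicate 1 or 2, which left 1 call. At 48 h, 6 of 7 members were higher and 0 were lower, against 14% and 16.1% of all genes. INSIG1 rose by 1.67 (standard error 0.11, adjusted p = 7.73e-10), HMGCS1 by 1.66 (standard error 0.13, adjusted p = 1.01e-08) and LSS by 1.34 (standard error 0.11, adjusted p = 8.53e-09). IDI1 rose by 0.90, SQLE by 0.80 and FDFT1 by 0.59. SREBF2 was at 0.20 (95% interval 0.06 to 0.33, adjusted p = 0.0174), and it passed with library size scaling, in DESeq2 (adjusted p = 0.00608) and without T0901317 replicate 3.

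With rosiglitazone at 24 h, FDFT1 rose by 0.36 (standard error 0.05, adjusted p = 2.67e-05), HMGCS1 fell by 0.34 (standard error 0.08, adjusted p = 0.00279) and INSIG1 fell by 0.26 (standard error 0.05, adjusted p = 0.00123). That is 1 of 7 members higher and 2 lower, against 5.81% and 6.52% of all genes. The decreases did not pass when all 32 libraries were fitted together, with adjusted p = 0.0333 for HMGCS1 and 0.0397 for INSIG1. IDI1 was at -0.24 (adjusted p = 0.0313) and passed with the 2 groups alone (0.00459). Without DMSO replicate 3 or rosiglitazone replicate 4, INSIG1 alone remained lower, so that the count was 1. At 48 h, FDFT1 rose by 0.36 (standard error 0.07, adjusted p = 5.19e-04) and IDI1 fell by 0.46 (standard error 0.12, adjusted p = 0.00544), so that 1 of 7 members was higher and 1 lower, against 12.3% and 13.1% of all genes. HMGCS1 was at -0.37, SQLE at -0.33, INSIG1 at -0.31 and LSS at -0.06, without passing.

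In the rosiglitazone group at 48 h, replicate 3 was lowest of the 4 libraries in 7 of 7 members, and replicate 1 was highest in HMGCS1, INSIG1, IDI1, FDFT1, SQLE and LSS. Replicate 3 also had the lowest TMM factor of all libraries at 48 h, 0.866 against up to 1.10. Without replicate 1, 4 members were lower than with DMSO (IDI1, HMGCS1, INSIG1 and SQLE), and scaling by library size alone gave 0 higher and 4 lower. That scaling moved the median log2 fold change of all genes in this comparison by -0.18. Of all genes called, 20.1% were then higher, against 48.4% with TMM scaling. The share of all genes called lower was not taken in that fit or in the fit without replicate 1. Fitting the 2 groups alone gave 0 lower, as did leaving out DMSO replicate 1, 2 or 4 or rosiglitazone replicate 2, 3 or 4, since IDI1 then missed the threshold. The part of composition or RNA quality in these differences was not tested.

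**Figure D2:**
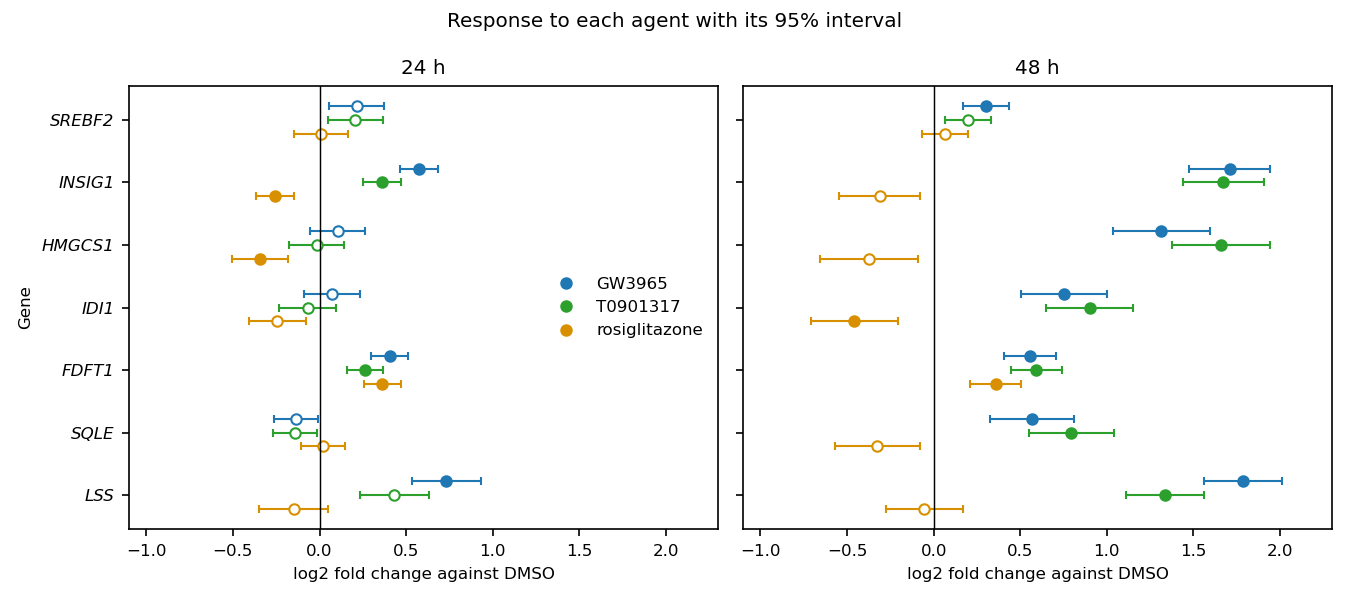
Log2 fold change of each member against DMSO of the same time (points, with 95% intervals) for each agent at 24 h and 48 h, filled where the adjusted p was under 0.01. With both LXR agonists INSIG1, HMGCS1 and LSS lie between 1.31 and 1.79 at 48 h, while rosiglitazone values stay between -0.46 and 0.36.

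The responses themselves differed between the time points for most members. For GW3965, the response at 48 h exceeded that at 24 h in 5 of 7 members and fell short in 0, against 9.96% and 11.7% of all genes. The differences of log2 fold changes were 1.21 in HMGCS1 (standard error 0.16, adjusted p = 7.12e-07), 1.14 in INSIG1 (standard error 0.13, adjusted p = 2.21e-08), 1.06 in LSS, 0.70 in SQLE and 0.68 in IDI1. For T0901317 it exceeded it in 6 of 7 members and fell short in 0, against 7.49% and 9.95% of all genes, with 1.68 in HMGCS1 (standard error 0.16, adjusted p = 1.79e-09) and 1.31 in INSIG1 (standard error 0.13, adjusted p = 1.27e-09). The difference in FDFT1 was 0.33 (adjusted p = 0.00387), and it missed the threshold without DMSO replicate 1 or T0901317 replicate 4 at 24 h or DMSO replicate 3 or T0901317 replicate 1 or 2 at 48 h. SREBF2 passed for neither agonist. For rosiglitazone, 0 of 7 members passed in either direction by edgeR, against 1.38% of all genes higher and 1.06% lower. Its values lay between -0.33 in SQLE (unadjusted p = 0.0245, the only member under 0.05) and 0.11 in LSS. SQLE passed without rosiglitazone replicate 1 at 48 h (adjusted p = 0.00585), and DESeq2 called 0.

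The change between 24 and 48 h within each agent places these values beside the fall in DMSO. The comparisons within the agonists were added after the DMSO values had been seen. With GW3965, 3 of 7 members were lower at 48 h and 0 were higher, against 15.2% and 16.2% of all genes. IDI1 fell by 0.48 (standard error 0.11, adjusted p = 4.34e-04), INSIG1 by 0.48 (standard error 0.09, adjusted p = 5.09e-05) and SQLE by 0.33 (standard error 0.10, adjusted p = 0.00685). SQLE missed the threshold with library size scaling (adjusted p = 0.0228) and without GW3965 replicate 1 or 2 at 24 h or 1 or 3 at 48 h. HMGCS1 was at -0.35 (95% interval -0.58 to -0.12), with every library at 48 h below every library at 24 h, and missed the threshold (adjusted p = 0.0134). It passed in DESeq2 (adjusted p = 0.00992) and without GW3965 replicate 2, T0901317 replicate 3 or rosiglitazone replicate 1 or 3 at 48 h. LSS was at 0.01 (95% interval -0.20 to 0.22). With T0901317, INSIG1 fell by 0.30 (standard error 0.09, adjusted p = 0.00649) and FDFT1 rose by 0.23 (standard error 0.06, adjusted p = 0.00256), so 1 of 7 was lower and 1 higher, against 16.3% and 15.8% of all genes. HMGCS1 was at 0.11 (95% interval -0.12 to 0.35). With library size scaling INSIG1 missed the threshold (adjusted p = 0.0910), and that scaling moved the median of all genes by 0.10. INSIG1 also missed it without T0901317 replicate 1, 2 or 3 at 24 h or 3 or 4 at 48 h, and FDFT1 without replicate 4 at 24 h or 1 or 2 at 48 h.

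With rosiglitazone, 5 of 7 members were lower at 48 h than at 24 h and 0 were higher, against 20.9% and 22.7% of all genes. The fall was 1.65 in INSIG1 (standard error 0.09, adjusted p = 3.46e-16), 1.58 in HMGCS1, 1.37 in SQLE, 1.36 in IDI1 and 0.94 in LSS, each given on the log2 scale. These are the 5 members that fell in DMSO. The higher values under LXR agonists at 48 h were therefore measured against a DMSO group that had itself dropped to between 33.0% (INSIG1) and 49.2% (SQLE) of its 24 h mean in these 5 genes. In the GW3965 group at 48 h the same 5 genes stood at 73.2% (SQLE) to 169% (LSS) of the DMSO mean at 24 h, and in the T0901317 group at 84.3% (IDI1) to 123% (LSS).

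**Figure D3:**
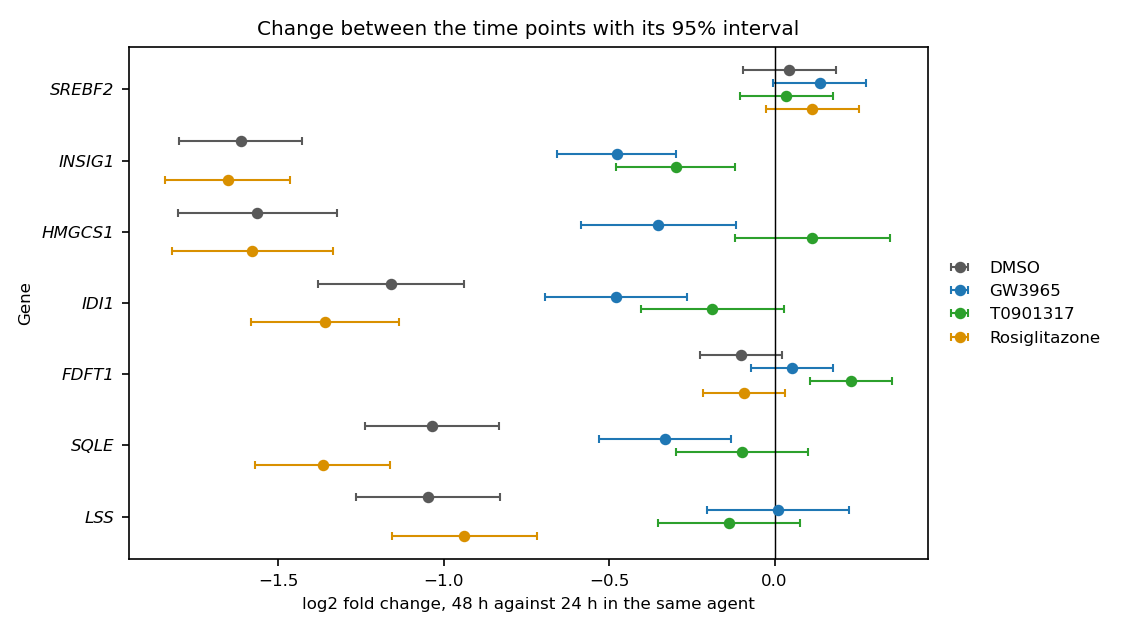
Log2 fold change of each member between 48 h and 24 h within each agent (points, with 95% intervals). In DMSO and rosiglitazone, 5 members lie at -0.94 or below, in the LXR agonist groups no member lies below -0.48, and SREBF2 and FDFT1 lie between -0.10 and 0.23 throughout.

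GW3965 and T0901317 were also set against each other at the same dose and time. At 24 h, 0 of 7 members passed in edgeR in either direction, against 0.193% of all genes higher with GW3965 and 0.597% lower. INSIG1 was higher with GW3965 by 0.21 (95% interval 0.10 to 0.32, adjusted p = 0.0394), with no overlap of the libraries, and DESeq2 called it (adjusted p = 0.00125), 1 of 7 members. The members with an unadjusted p under 0.05 were INSIG1, LSS at 0.30 (95% interval 0.10 to 0.50) and FDFT1 at 0.14 (95% interval 0.04 to 0.24). Without GW3965 replicate 1, LSS passed (adjusted p = 0.00201). At 48 h, 1 of 7 was higher with GW3965 and 0 were lower, against 5.03% and 3.32% of all genes. That gene was LSS, at 0.45 (standard error 0.10, adjusted p = 0.00606), but it missed the threshold with library size scaling (adjusted p = 0.0135) and in 6 of 16 fits without 1 library. These were the fits without GW3965 replicate 1, 2 or 4 or T0901317 replicate 2, 3 or 4. HMGCS1 was at -0.34 (95% interval -0.62 to -0.07, adjusted p = 0.0772) and INSIG1 at 0.04 (95% interval -0.19 to 0.26).

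Rosiglitazone against GW3965 gave wider contrasts than GW3965 against T0901317. Rosiglitazone was not tested against T0901317. At 48 h the HMGCS1 mean was 49.7 CPM with rosiglitazone, 159 CPM with GW3965 and 201 CPM with T0901317. At 24 h, 4 of 7 members were lower with rosiglitazone and 0 were higher, against 6.09% and 4.6% of all genes. LSS was at -0.88 (log2 fold change, standard error 0.10, adjusted p = 1.47e-06), and INSIG1 was at -0.83, HMGCS1 at -0.45 and IDI1 at -0.32. IDI1 (adjusted p = 0.00685) missed the threshold with the 2 groups alone (adjusted p = 0.0130 by edgeR), with all 32 libraries (0.0357) and in 8 of 16 fits without 1 library. SREBF2 was at -0.21 (adjusted p = 0.0640), and it passed with library size scaling (0.00623) and without GW3965 replicate 1 (0.00711). SQLE was higher with rosiglitazone in the fit without that library (adjusted p = 0.00730). At 48 h, 6 of 7 were lower and 0 were higher, against 22.6% and 22.4% of all genes. INSIG1 was at -2.02 (standard error 0.11, adjusted p = 2.37e-11), LSS at -1.84, HMGCS1 at -1.69, IDI1 at -1.21, SQLE at -0.89 and SREBF2 at -0.24. SREBF2 missed the threshold without GW3965 replicate 3 (adjusted p = 0.0106) or rosiglitazone replicate 3 (0.0126) or 4 (0.0140). FDFT1 was at -0.20 (95% interval -0.35 to -0.05, adjusted p = 0.0224), and it passed with library size scaling (0.00120) and without rosiglitazone replicate 1 (0.00613).

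Other enzymes of the route were taken from a list of 15, all of which were tested. In DMSO, 12 of 15 were lower at 48 h than at 24 h and 0 were higher, against 18.9% and 19.7% of all genes, with a median of -0.50, while the median of all genes lay between -0.02 and 0.03 in every comparison. MSMO1, a sterol methyl oxidase, fell by 1.61, MVK, the mevalonate kinase, by 1.44 and MVD, which makes isopentenyl pyrophosphate, by 1.13. With GW3965 at 48 h against DMSO, 9 of 15 were higher and 1 was lower, against 16.1% and 17.5% of all genes, with a median of 0.72. MVD rose by 1.57 (standard error 0.15, adjusted p = 1.06e-07) and MSMO1 by 1.26 (standard error 0.12, adjusted p = 4.33e-08), while CYP51A1, the lanosterol demethylase, fell by 0.30 (standard error 0.06, adjusted p = 3.77e-04). With T0901317 at 48 h, 13 of 15 were higher and 0 were lower, against 14% and 16.1% of all genes, with a median of 0.72, led by MSMO1 at 1.73 and MVD at 1.28. At 24 h, GW3965 raised 1 of 15 (DHCR7, which reduces 7-dehydrocholesterol, by 0.30, adjusted p = 0.00976, a call lost in the fits of the 2 groups or all 32 libraries) and T0901317 raised 0, with 0 lower for both. The shares of all genes at 24 h were 1.86% higher and 0.868% lower with GW3965 and 1.33% and 0.119% with T0901317.

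Rosiglitazone lowered 1 of 15 at 24 h, TM7SF2, a sterol reductase, by 0.60 (adjusted p = 1.37e-04), and raised 0, while 6.52% of all genes were lower, a share close to 1 of 15. At 48 h it lowered 3 and raised 1, against 13.1% and 12.3% of all genes. With library size scaling it lowered 7 and raised 0. That scaling moved the median of all genes by -0.18, and 20.1% of called genes were then higher, against 48.4% with TMM scaling. TM7SF2 fell by 0.69 (adjusted p = 2.39e-06), MSMO1 fell by 0.52 (adjusted p = 0.00225) and NSDHL, which removes the methyl groups with MSMO1, rose by 0.29 (adjusted p = 0.00974). TM7SF2 followed another course than MSMO1, MVK and MVD. It differed by 0.04 between the DMSO groups (adjusted p = 0.734), yet its mean went from 133 ± 19.6 CPM at 24 h to 231 ± 13.8 CPM at 48 h with GW3965 (SD, n = 4). Between the time points in GW3965 cells 1 of the 15 enzymes was higher and 4 were lower, against 16.2% and 15.2% of all genes. The higher enzyme was TM7SF2 at 0.79 (adjusted p = 3.04e-08).

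**Figure D4:**
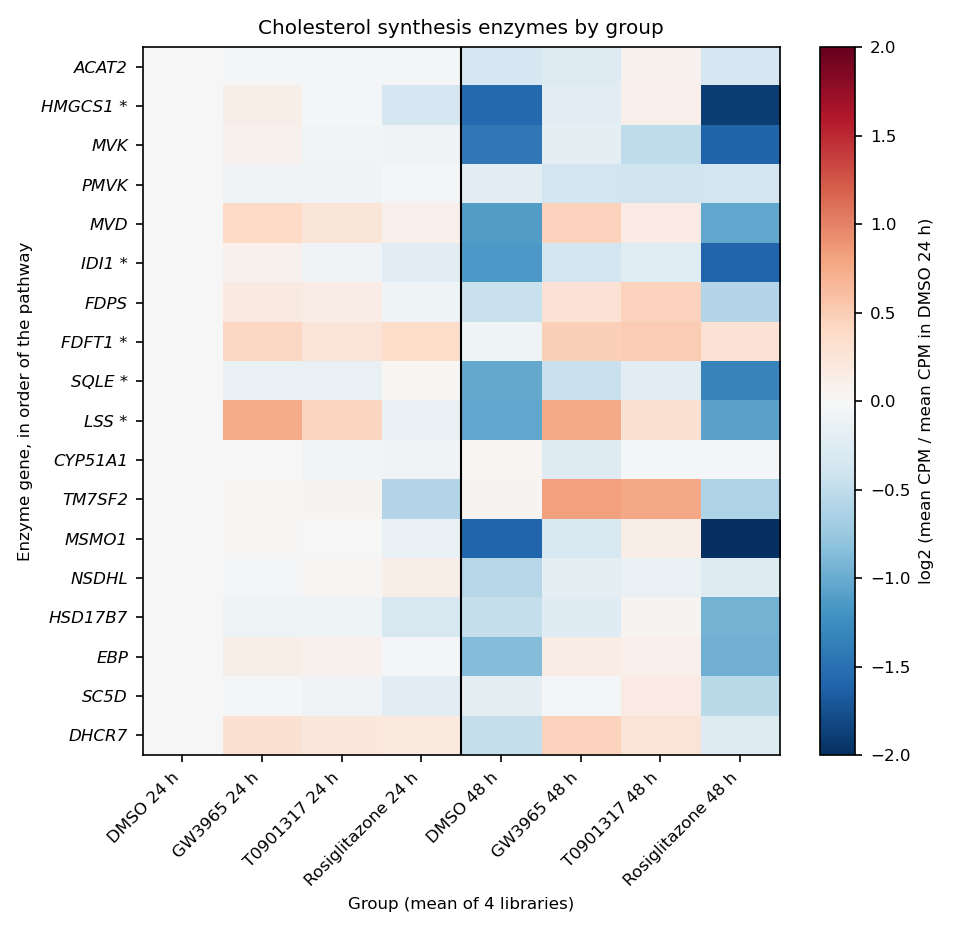
Log2 ratio of the mean CPM of each group to that of DMSO at 24 h for 18 enzymes in pathway order (5 members marked with a star and 13 of the 15 others). HMGCS1, MVK, MVD, IDI1, SQLE, LSS, MSMO1 and EBP are blue (lower) in DMSO and rosiglitazone at 48 h and paler or red in the LXR agonist groups, CYP51A1 and PMVK stay pale, and TM7SF2 is red with both LXR agonists at 48 h.

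Of 5 genes that sense sterols or process SREBPs, 1 was higher and 0 were lower with GW3965 at 24 h, and the same counts held for T0901317. That gene was SREBF1 both times, which rose by 1.99 (adjusted p = 6.05e-09) and by 1.76 (adjusted p = 4.79e-08) on the log2 scale. At 48 h, with GW3965 SREBF1 rose by 2.16 and MBTPS2, a protease that cuts SREBPs, fell by 0.39 (1 higher, 1 lower). With T0901317, SREBF1 rose by 1.48 and MBTPS1, the protease that cuts first, rose by 0.24 (2 higher, 0 lower). With rosiglitazone INSIG2, the relative of INSIG1, fell by 0.35 at 24 h (0 higher, 1 lower). At 48 h SREBF1 rose by 0.48 and SCAP by 0.36, whereas INSIG2 fell by 0.32 and MBTPS1 by 0.22 (2 higher, 2 lower). In DMSO between the times, 2 of 5 were higher and 0 were lower, against 19.7% and 18.9% of all genes. The shares of all genes higher and lower at 24 h were 1.86% and 0.868% (GW3965), 1.33% and 0.119% (T0901317) and 5.81% and 6.52% (rosiglitazone). Those at 48 h were 16.1% and 17.5%, 14% and 16.1%, and 12.3% and 13.1%, in the same order of agents. With so few genes the counts are given as a description.

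Of 11 genes of sterol uptake and handling, GW3965 raised 3 at 24 h and 6 at 48 h and lowered 0 and 2, and T0901317 raised 2 and 6 and lowered 0 and 2. MYLIP, an LXR target that marks lipoprotein receptors for degradation, rose by 1.46 and 1.39 with the 2 agonists at 24 h and by 1.74 and 1.66 at 48 h. NPC1, which moves cholesterol out of lysosomes, fell by 0.78 with GW3965 and by 0.88 with T0901317 at 48 h, having risen by 1.01 in DMSO between the times. Its partner NPC2 rose by 0.60 with GW3965 and by 0.71 with T0901317, in the opposite direction. Rosiglitazone raised 1 of 11 and lowered 3 at 24 h, with MYLIP at 0.34 and NPC2 at -0.54. At 48 h it raised 3 and lowered 5, with MYLIP at 0.63, NPC1 at 0.61, NPC2 at -0.91 and SOAT1, which esterifies cholesterol, at -1.35. At 24 h the shares of all genes higher and lower were 1.86% and 0.868% with GW3965 and 1.33% and 0.119% with T0901317. With rosiglitazone at 24 h they were 5.81% and 6.52%. At 48 h the shares of all genes were 16.1% higher and 17.5% lower with GW3965, 14% and 16.1% with T0901317 and 12.3% and 13.1% with rosiglitazone. In DMSO between the times 2 of 11 were higher and 2 were lower, near the 19.7% and 18.9% of all genes.

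The members were not equally related to one another over the 32 libraries, which share agents and time points. Pearson's r of log2 CPM was 0.97 between INSIG1 and HMGCS1, 0.97 between HMGCS1 and IDI1 and 0.94 between INSIG1 and LSS. SREBF2 was at 0.22 with HMGCS1 and -0.02 with SQLE. After the mean of each group was taken away, HMGCS1, IDI1 and SQLE remained close (r from 0.92 to 0.95), while LSS was at 0.24 with HMGCS1 and at 0.82 with SREBF2. These deviations also moved with the TMM factor of the library, at r of 0.56 for IDI1 and SQLE, -0.56 for LSS and -0.62 for SREBF2, and the part of library composition in them was not tested. GW3965 replicate 1 at 24 h gives an example, being highest of its group in HMGCS1 (231 CPM) and SQLE (435 CPM) and lowest in LSS (292 CPM) and SREBF2 (357 CPM).

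The mean of the 7 members' standardised log2 CPM was compared with 14493 other genes whose average log2 CPM was 1 or more. The closest 10 were CALR (r = 0.98), MVD (0.97), CACNG4 (0.96), EBP (0.95), FASN (0.95), PDIA4 (0.95), AP001469.5 (0.94), GNE (0.94), CLDN3 (0.94) and ENO2 (0.94), over 32 libraries that share groups. MVD and EBP are enzymes of the route, FASN is the fatty acid synthase, and CALR and PDIA4 are chaperones of the endoplasmic reticulum. Among the other enzymes DHCR7 reached 0.93 and MSMO1 and FDPS 0.92, whereas PMVK was at 0.18 and CYP51A1 at -0.28.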

How the data were processed

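RNA-seq of HT29 cells was used, 32 of the 82 samples listed in the labels. The authors sequenced polyadenylated RNA from both ends and deposited counts of reads for each Ensembl gene, whole numbers without normalization, in 1 table per time point. The labels' processing notes name TopHat, Cufflinks and hg19 without versions, and the counting program and its use of strand are not stated in those notes or the methods, so reads of genes that overlap a member cannot be told apart from its own. Symbols in the tables gave the members. The 34 peak files were not used here.

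Counts were tested in edgeR 4.0.16 (R 4.3.3) after filterByExpr and TMM scaling, with the quasi-likelihood test over 21781 genes at 24 h (16 libraries), 22470 at 48 h (16 libraries) and 23140 for comparisons between times (32 libraries). Standard errors come from the F statistic and 95% intervals from its t distribution. Scripts were tested on simulated data. The methods say that each treatment was done in quadruplicate at each time point. Neither they nor the labels say that replicates were separate cultures, so p-values measure the spread between these samples. No pair of replicates agreed within sampling noise. The chi-square per gene is larger where 2 libraries of a group are less alike, and also where their counts are deeper. It ran from 3.66 to 73.2 over 48 pairs. Pairs with GW3965 replicate 1 at 24 h gave 31.8, 73.2 and 66.4, and other pairs of that group at most 11.5. Rosiglitazone replicates 1 and 3 at 48 h gave 53.1. The 3 agents of a time point share its DMSO libraries. The members and gene lists were chosen with earlier results of these data known. Per list and comparison with DMSO, the 2 largest increases and 2 largest decreases among called genes were to be named, with control genes and the 10 genes most like the members. MVK, FDPS and PMVK were named after their values were seen, and 4 genes of the lists were counted but are not reported by name here. Alternatives were DESeq2 1.42.0, library size and RLE scaling, no filter, a replicate block, fold limits of 1.5 and 2, other sets of libraries in the fit, and leaving out each library. Plots used matplotlib 3.10.9 in Python 3.11.15.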

Additional observations from a re-analysis of the deposited data

Results flagged for a closer look

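In 3 of 56 groups of 4 libraries, 1 library stood apart from the other 3 by a gap larger, as a share of the range, than the 95% critical value of Dixon's test on log2 CPM, and chance gives about 1 such group in 20. DMSO replicate 3 at 24 h was lowest in SREBF2 (321 CPM) and in LSS (200.3 CPM), and GW3965 replicate 3 at 48 h was lowest in IDI1 (68.7 CPM). On the linear CPM scale 1 of these 3 groups, that of LSS, passed the same value.

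The response to GW3965 at 48 h differed from that at 24 h by a tested interaction in INSIG1 (difference of log2 fold changes 1.14), HMGCS1 (1.21), IDI1 (0.68), SQLE (0.70) and LSS (1.06). The response to T0901317 differed likewise in INSIG1 (1.31), HMGCS1 (1.68), IDI1 (0.97), FDFT1 (0.33), SQLE (0.94) and LSS (0.91). In all of these except FDFT1, the DMSO group itself was lower at 48 h.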

How the results depend on the processing

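The fits by DESeq2 (115 of 119 member values), RLE scaling (119 of 119), no filter (117 of 119) and library size scaling (107 of 119) left the side of the threshold as reported, and 0 member values that passed in either of the fits compared changed sign. DESeq2 called 1 member in GW3965 against T0901317 at 24 h. Library size scaling gave 0 higher and 4 lower for rosiglitazone at 48 h, 0 for GW3965 against T0901317 at 48 h and 0 lower for T0901317 between the times. Fitting all 32 libraries gave 0 higher for T0901317 and 0 lower for rosiglitazone at 24 h, and fitting 2 groups gave 0 lower for rosiglitazone at 48 h. With fold limits of 1.5 and 2, GW3965 raised 1 and 0 members at 24 h and 4 and 3 at 48 h, T0901317 raised 0 at 24 h under both and 3 at 48 h under the limit of 2, and rosiglitazone changed 0 at either time. These limits left 2 and 0 members lower in rosiglitazone against GW3965 at 24 h and 0 in GW3965 against T0901317 at 48 h. The limit of 2 left 3 differences between the responses for GW3965 and 2 for T0901317, and between the times 0 remained for GW3965 or T0901317 under either limit. Shares of all genes called were not taken under these limits or in the other fits named here.

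Leaving out 1 library at a time gave 1 to 3 members higher with T0901317 at 24 h, 1 to 2 lower with rosiglitazone at 24 h and 0 to 4 at 48 h, 0 to 1 for GW3965 against T0901317 at either time, 0 to 1 higher for rosiglitazone against GW3965 at 24 h, 0 to 1 lower in the rosiglitazone difference between responses, and 0 to 1 higher and 0 to 1 lower for T0901317 between the times. Except for fold limits, which remove smaller changes by construction, the cause of these shifts was not tested.

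No sign was seen that replicate numbers paired the samples. Deviations of same-numbered libraries from their group means correlated between -0.08 and 0.12 at 24 h, with 1 of 24 pairs over 0.1, and between -0.05 and 0.09 at 48 h. Libraries of different numbers lay between -0.19 and 0.13 at 24 h, with 3 of 72 pairs over 0.1, and between -0.09 and 0.06 at 48 h. A fit with the replicate block gave 4 members lower with rosiglitazone at 48 h (IDI1, INSIG1, HMGCS1 and SQLE), gained FDFT1 in rosiglitazone against GW3965 at 48 h and HMGCS1 in GW3965 between the times, lost IDI1 in rosiglitazone against GW3965 at 24 h (adjusted p = 0.0102), moved no other count of members by more than 1.5 times, and left 113 of 119 member values on the same side of the threshold. The shares of all genes called were not taken in the fit with the replicate block. The shallowest library had 21044798 counts, and whether depth limited the calls was not tested.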
